A study of Mus musculus with 18 samples.

Results

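The 45 genes described here encode the proteins that copy DNA in S phase. They were taken by gene symbol from the 41325 entries of a count table of mouse ovarian follicle cells, and 45 of 45 were found. The table holds 18 RNA-seq libraries in 6 groups of 3. Cumulus cells, the granulosa cells around the oocyte, and mural granulosa cells, which form the inner wall of the follicle, were each sampled at 0, 4 and 12 h after mice received human chorionic gonadotropin (hCG), which acts in place of the luteinizing hormone surge that sets off ovulation. Every library came from ovaries labelled WT in genotype, and the 0 h groups carry the treatment label of hCG at 0 h. The sources used here do not give strain, age, any earlier hormone priming, or the number of animals behind a library. The p-values therefore cover only the spread among the libraries of a group, which may be technical. Libraries were put in groups by their titles, because the cell-type field names mural granulosa cells for 8 of the 9 libraries titled as cumulus cells and is missing in 1.

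DNA replication starts in G1, when the origin recognition complex, CDC6 and CDT1 load the ring-shaped MCM helicase onto origins. At the G1/S boundary cyclin E and its kinase, together with the kinase made of CDC7 and DBF4, turn the loaded ring into an active helicase with CDC45 and the GINS complex. Polymerase alpha and primase then start each strand, the clamp loader RFC places the PCNA clamp, and polymerases delta and epsilon extend it, while FEN1 and LIG1 join the pieces of the lagging strand. Most of these genes are transcribed in late G1 under E2F transcription factors, so their RNA is a common measure of cycling cells. Granulosa cells divide in growing follicles and leave the cell cycle when the ovulatory signal turns them into luteal cells.

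The promoter windows are shown first because the 45 genes were chosen by function and E2F is their best known shared regulator. RefSeq windows (GRCm38.p6, 250 bases before to 50 bases after a start) matched 37 of the 45 genes, with 43 windows in all. The letters TTTCGCGC, TTTGGCGC or TTTCCCGC, forms of the E2F motif, were searched on both strands. They occurred in a window of 14 of the 37 genes (37.8%), against 573 of 27025 genes with a window (2.1%). CCAAT, the letters of the CCAAT box bound by NF-Y, occurred in 21 of the 37 (56.8%), against 41.1% of all genes. The letters TTTGAA or TTCGAA of the cell cycle homology region occurred in 8 of the 37 (21.6%), against 21.7% of all genes. The 250 bases before the RefSeq start are given for Mcm5, Mcm6 and Cdc6, which fell at 12 h in both cell types and hold E2F letters, and for Pcna, which rose at 4 h, and Rrm2, which rose at 12 h in mural cells, whose windows hold none. Capitals mark E2F letters and CCAAT on either strand, and in Mcm5 and in Mcm6 a pair of E2F matches overlap in 1 run of capitals. RefSeq and GENCODE M21 place some starts differently: the window of Cdc6 lies inside the GENCODE gene, those of Pcna and Rrm2 overlap its first bases, and those of Mcm5 and Mcm6 lie before it.
Mcm5, chr8:75109259-75109508, plus strand: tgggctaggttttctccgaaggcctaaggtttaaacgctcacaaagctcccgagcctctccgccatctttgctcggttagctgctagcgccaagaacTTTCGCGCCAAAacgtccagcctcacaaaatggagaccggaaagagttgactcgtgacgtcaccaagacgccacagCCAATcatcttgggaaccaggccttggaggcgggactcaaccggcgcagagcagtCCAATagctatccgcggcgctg
Mcm6, chr1:128359706-128359955, minus strand: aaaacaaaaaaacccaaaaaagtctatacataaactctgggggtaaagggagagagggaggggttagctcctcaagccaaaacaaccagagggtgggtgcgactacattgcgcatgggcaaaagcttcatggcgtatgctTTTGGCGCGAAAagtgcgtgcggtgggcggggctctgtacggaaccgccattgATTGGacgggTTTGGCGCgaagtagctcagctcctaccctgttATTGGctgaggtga
Cdc6, chr11:98907901-98908150, plus strand: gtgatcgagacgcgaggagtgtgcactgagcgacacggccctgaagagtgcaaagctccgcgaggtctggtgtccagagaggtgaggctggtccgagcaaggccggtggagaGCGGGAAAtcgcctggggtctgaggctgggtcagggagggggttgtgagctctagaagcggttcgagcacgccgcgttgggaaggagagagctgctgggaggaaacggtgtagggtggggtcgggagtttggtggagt
Pcna, chr2:132253181-132253430, minus strand: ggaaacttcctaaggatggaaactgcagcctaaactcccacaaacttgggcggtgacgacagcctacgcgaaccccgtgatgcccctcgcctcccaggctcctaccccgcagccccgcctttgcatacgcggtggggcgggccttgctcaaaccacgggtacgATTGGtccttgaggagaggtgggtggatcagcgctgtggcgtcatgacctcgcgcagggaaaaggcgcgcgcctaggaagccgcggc
Rrm2, chr12:24708004-24708253, plus strand: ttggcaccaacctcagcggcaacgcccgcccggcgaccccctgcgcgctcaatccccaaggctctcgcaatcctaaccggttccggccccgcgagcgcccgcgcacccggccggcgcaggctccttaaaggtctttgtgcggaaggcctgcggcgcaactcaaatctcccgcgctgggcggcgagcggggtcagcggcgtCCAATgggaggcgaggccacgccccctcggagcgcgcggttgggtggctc
A match is a description of these letters and not a shown binding site. Genes with E2F letters had a median log2 change from 0 to 12 h of -2.18 in cumulus cells and -1.22 in mural cells (n = 14), beside -1.80 and -0.87 for the genes with a window that lacked them (n = 23), with ranges that overlapped. In cumulus cells the genes that lacked the letters all changed downward too (-2.87 to -0.56), so the printed windows do not stand for the set.

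Library totals were 32211630 to 47919446 counts, and the lowest count of any of the 45 genes in any library was 77. All 45 were among the 19941 genes kept by the filter on low counts. Levels are in CPM, the count of a gene relative to the scaled library total, and log2 changes are given ± SE from the quasi-likelihood test of edgeR, with p-values adjusted by the Benjamini-Hochberg method across the 19941 genes. A gene is said to have risen or fallen where its adjusted p was under 0.05. The mural markers Lhcgr, Cyp11a1 and Nppc summed to 18.8 to 381 CPM in cumulus libraries and to 1453 to 5549 CPM in mural libraries. The 8 granulosa markers summed to 2691 to 18541 CPM in cumulus and 3844 to 25261 CPM in mural libraries, and in both cell types their lowest sums were those of 12 h. The 18 oocyte markers summed very unevenly. Their sums were 503, 2264 and 2352 CPM in cumulus cells at 0 h, 2677, 1374 and 8488 CPM at 4 h and 38.2, 43.0 and 38.0 CPM at 12 h. In mural libraries they ran from 172 to 748 CPM. At 12 h, 3, 3 and 5 of the 18 oocyte markers had no count in the cumulus libraries, and the egg coat gene Zp3 averaged 0.0920 CPM there, against 131 CPM at 0 h. Mitochondrially encoded genes took 8.40 to 12.6% of counts in cumulus cells at 0 h, 4.29 to 6.13% at 4 h and 2.49 to 2.94% at 12 h, and 3.5 to 7.44% in mural cells. Stroma markers summed to 2.58 to 12.8 CPM in cumulus and 239 to 929 CPM in mural libraries, and erythroid markers to 5.95 to 109 CPM in cumulus and 87.6 to 732 CPM in mural libraries. Endothelial markers, mostly Cdh5, summed to 164 to 201 CPM in cumulus and 129 to 159 CPM in mural cells at 12 h, against 9.45 to 16.7 CPM in cumulus and 29.4 to 44.9 CPM in mural cells at 0 h. The means of Pecam1, Tek and Emcn were lower at 12 than at 0 h in both cell types. Like Cdh5, Kdr was higher, at 20.6 against 0.386 CPM in cumulus and 9.35 against 7.67 CPM in mural cells. The markers thus did not move together, and whether these sums reflect more endothelial RNA was not tested. The part of such RNA in the changes below was not tested unless a value is given.

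**Figure D1:**
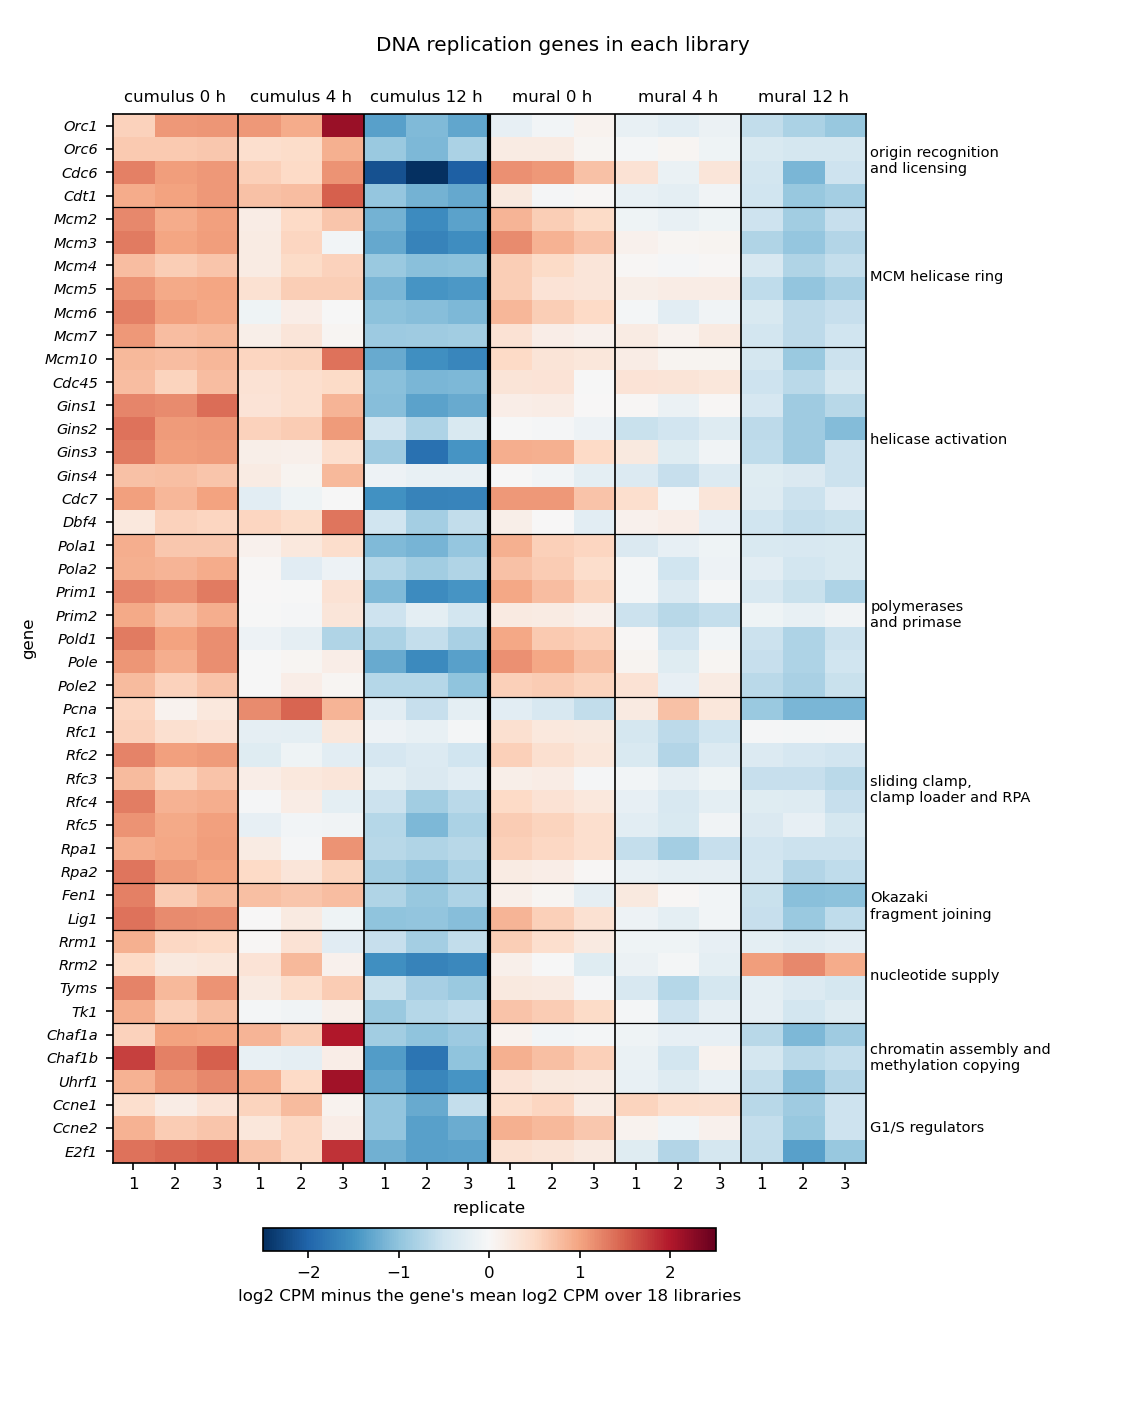
Level of each of the 45 genes (rows, by role) in each of the 18 libraries (columns), as log2 CPM minus the gene's mean over all libraries, red for higher and blue for lower. Most genes are bluest in the 3 cumulus libraries of 12 h, while Pcna is not, Rrm2 is red in mural cells at 12 h, and cumulus 4 h replicate 3 stands out in red for genes such as Orc1, Chaf1a and Uhrf1.

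The replication genes fell as a group in both cell types after hCG, and by 12 h they had fallen further in cumulus than in mural cells. In cumulus cells 45 of 45 were lower at 12 than at 0 h, with a median log2 change of -1.83. The background was wide, since 32.9% of all genes tested fell in that comparison, and the median over all genes was -0.09. Mean levels at 12 h were 28.1% of those at 0 h in the median gene, from 9.24% for Cdc6 to 67.9% for Rfc1, and below 25% for 18 genes. In mural cells 43 of 45 were lower at 12 than at 0 h (19% of all genes fell), 1 was higher (21.6% of all genes rose) and Gins4 was not called. The median log2 change there was -0.94, against -0.05 over all genes, and the median gene kept 52.2% of its 0 h level. Summed over the 45 genes, cumulus libraries held 4432, 3956 and 4141 CPM at 0 h, 2827, 3038 and 3629.7 CPM at 4 h and 1235, 1103 and 1179 CPM at 12 h. Mural libraries held 3272.5, 2919.8 and 2646 CPM at 0 h, 2173.5, 2055 and 2135.5 CPM at 4 h and 1731, 1541 and 1615 CPM at 12 h. These sums fell at each step without overlap between neighbouring times in either cell type. In such bulk libraries fewer cycling cells and less of each RNA per cell cannot be told apart.

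By 4 h a smaller number had fallen in either cell type. In cumulus cells 29 of the 45 genes were lower than at 0 h (22.8% of all genes fell) and 1, Pcna, was higher (25% rose), with a median log2 change of -0.48 against 0.13 over all genes. In mural cells 28 were lower (22.3% fell) and again Pcna alone was higher (22.8% rose), with a median of -0.66 against -0.06. From 4 to 12 h 43 of the 45 fell in cumulus cells (31.3% of all genes fell), Rfc1 and Rfc2 were not called, and the median was -1.43 against -0.04. In mural cells 28 fell (16.1% of all genes) and 3 rose (18.3% of all genes), namely Rrm2, Rfc1 and Prim2, and the median was -0.52 against 0.01. Without mural 12 h replicate 2 this last comparison held 17 falls and 3 rises. In cumulus cells 27 genes fell in both steps, 15 were called lower in the second step and not in the first, and 2 in the first and not in the second. Without cumulus 4 h replicate 3, the genes Cdc6, Mcm4, Gins4, Rpa1, Uhrf1 and E2f1 were called lower in the first step. Their place among the 15 thus rests on that library, and the first-step call of Ccne2 was lost without it. In mural cells 15 fell in both steps, 12 were called lower in the second step and not in the first, and 11 in the first and not in the second. These classes rest on 1 spread per gene shared by all 6 groups. With only the groups compared in the fit, mural cells showed 33 falls and 1 rise at 4 against 0 h. In that fit 10615 of 17724 genes were called, 48.4% of them higher. Cumulus cells then showed 24 falls and 1 rise at 4 against 0 h, with 5509 of 17851 genes called, 44.9% of them higher. A gene not called in a step is thus not shown to be unchanged in it.

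The changes are relative to the scaling of the libraries. When library totals replaced TMM scaling, the all-gene median moved from -0.06 to -0.38 for mural cells at 4 against 0 h, from 0.01 to 0.16 at 12 against 4 h and from -0.05 to -0.22 at 12 against 0 h. In cumulus cells it moved from 0.13 to -0.01, from -0.04 to -0.15 and from -0.09 to -0.34 in the same comparisons. The share of called genes that rose then changed from 50.6 to 29.1%, from 53.2 to 66.8% and from 53.2 to 39.9% in mural cells. In cumulus cells it changed from 52.3 to 41.0%, from 48.3 to 43.1% and from 48.7 to 38.1%. Of all 19941 genes, 9614, 7176 and 8594 were then called in mural cells, in place of 8991, 6873 and 8108. More genes of any kind thus fell in mural cells at 4 and at 12 against 0 h. In cumulus cells 9352 were called at 4 against 0 h and 12149 at 12 against 4 h, in place of 9532 and 12065. Under library totals the replication genes showed 1 rise and 38 falls, 3 rises and 19 falls, and 1 rise and 44 falls in mural cells, and 1 rise and 32 falls, 44 falls, and 45 falls in cumulus cells.

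**Figure D2:**
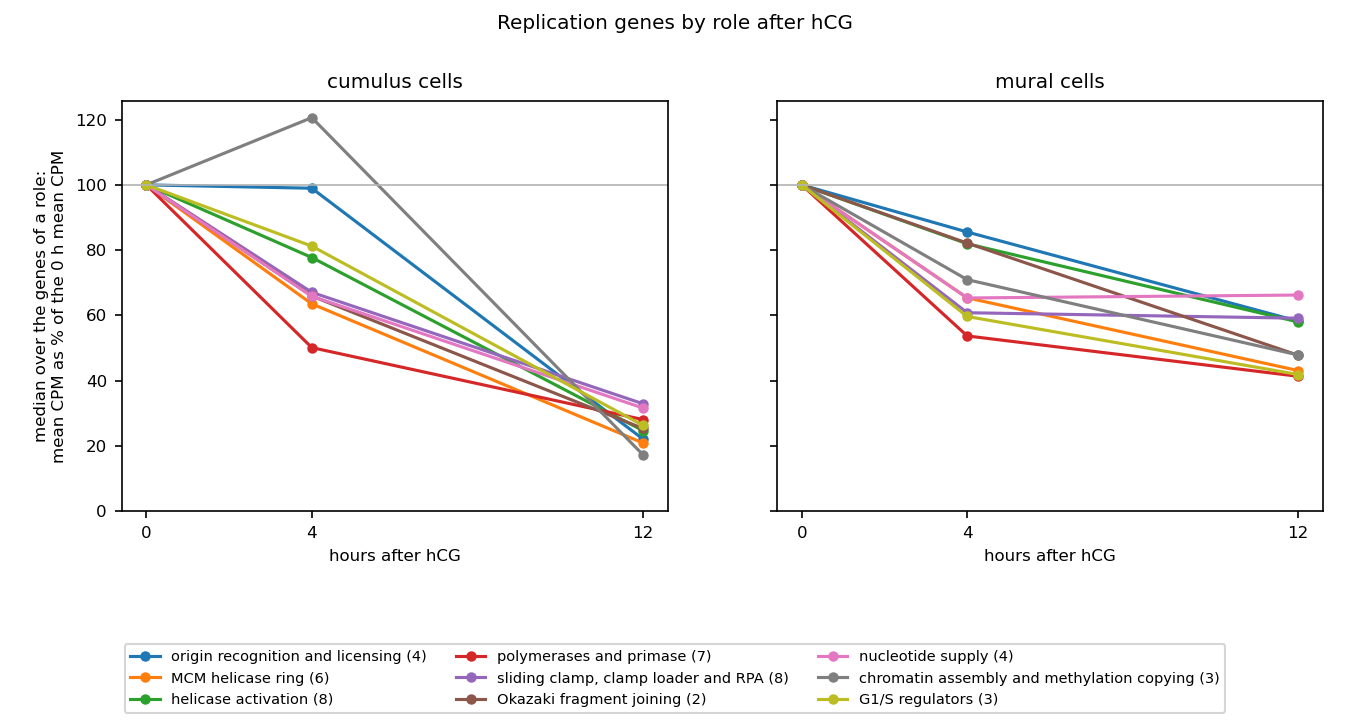
Median over the genes of each role of the mean level as a percentage of the 0 h mean (vertical axis) against hours after hCG, for cumulus cells (left) and mural cells (right), with the number of genes per role in brackets. In cumulus cells all roles ended between 17.3 and 32.9% at 12 h, and in mural cells between 41.3 and 66.2%.

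The 4 genes for origin recognition and licensing were lower at 12 than at 0 h in both cell types. In cumulus cells 0 of the 4 passed the test at 4 h and 4 of 4 were lower at 12 h, with a median log2 change of -2.17. Without cumulus replicate 3 of 4 h, Cdc6 was called lower at 4 against 0 h (-0.58 ± 0.21, adjusted p = 0.0257). In mural cells 1 of 4 was lower at 4 h and 4 of 4 at 12 h, with a median of -0.78. Cdc6, which encodes the ATPase that brings the MCM ring to the origin (chromosome 11, 98907801 to 98923940, protein-coding, GENCODE M21 on GRCm38), showed the largest fall of the 45 in cumulus cells. Its cumulus levels were 37.3, 32.3 and 33.1 CPM at 0 h, 23.5, 22.01 and 34.03 CPM at 4 h and 3.43, 2.26 and 3.804 CPM at 12 h. Mural Cdc6 levels were 34.4, 33.1 and 25.9 CPM at 0 h, 20.1, 13.9 and 19.3 CPM at 4 h and 11.4, 7.07 and 10.9 CPM at 12 h. The 12 h values lay below all earlier ones in both cell types, and cumulus 4 h replicate 3 stood at the 0 h level. The log2 change at 12 against 0 h was -3.43 ± 0.24, adjusted p = 1.03e-09 in cumulus cells and -1.67 ± 0.22, adjusted p = 7.45e-06 in mural cells. The lowest count of the 45 genes in any library, 77, was that of Cdc6, so its 12 h cumulus level rests on the fewest counts.

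Cdt1, the partner of CDC6 in loading the helicase, had 71.9, 75.96 and 79.7 CPM at 0 h, 62.4, 63.99 and 105 CPM at 4 h and 19.2, 16.6 and 15.5 CPM at 12 h in cumulus cells. Mural Cdt1 levels were 44.7, 37.1 and 38.3 CPM at 0 h, 33.1, 31.97 and 35.4 CPM at 4 h and 26.7, 19.6 and 20.8 CPM at 12 h. In cumulus cells 2 of the 3 values of 4 h lay below those of 0 h and the third above them, and the 12 h values were lower than all others (-2.15 ± 0.17, adjusted p = 7.16e-09 against 0 h). In mural cells the fall to 12 h was -0.84 ± 0.17, adjusted p = 0.000582. Orc1, the largest subunit of the origin recognition complex, had 11.5, 16.5 and 16.7 CPM at 0 h, 16.4, 14.8 and 34.5 CPM at 4 h and 3.01, 3.61 and 3.14 CPM at 12 h in cumulus cells. In mural cells Orc1 had 6.77, 7.404 and 8.24 CPM at 0 h, 6.86, 6.503 and 7.05 CPM at 4 h and 5.06, 4.48 and 4.04 CPM at 12 h. Here too cumulus 4 h replicate 3 was far above the other libraries of its group, at 2.21 times their mean. The change at 12 against 0 h was -2.20 ± 0.26, adjusted p = 1.07e-06 in cumulus and -0.72 ± 0.25, adjusted p = 0.0298 in mural cells, and the cumulus fall was no longer called with the summed oocyte markers as a covariate (-0.57 ± 0.36, adjusted p = 0.223). That covariate cannot separate oocyte RNA from the 12 h cumulus change, because the cumulus sums at 12 h lay below those of every other library. The mural call was lost without mural 0 h replicate 2, mural 0 h replicate 3, mural 12 h replicate 2 or mural 12 h replicate 3 (-0.74 to -0.63). Orc6, the smallest subunit, had 54.4, 54.99 and 55.3 CPM at 0 h, 46.3, 47.4 and 64.5 CPM at 4 h and 18.3, 16.01 and 20.1 CPM at 12 h in cumulus cells. In mural cells Orc6 had 40.2, 40.04 and 35.7 CPM at 0 h, 33.5, 35.7 and 32.1 CPM at 4 h and 26.7, 25.5 and 25.7 CPM at 12 h. At 4 h cumulus replicates 1 and 2 lay below and replicate 3 above all 3 of the 0 h values, and the change did not pass the test (-0.06 ± 0.12, adjusted p = 0.702). Orc6 fell at 12 h in both (-1.60 ± 0.12, adjusted p = 2.74e-09 in cumulus, -0.57 ± 0.12, adjusted p = 0.000729 in mural cells).

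The MCM ring is built from a single copy of each of MCM2 to MCM7. At 4 h 5 of 6 were lower in cumulus cells, all but Mcm4 (-0.27 ± 0.11, adjusted p = 0.0556), and 4 of 6 in mural cells, all but Mcm5 (-0.26 ± 0.12, adjusted p = 0.078) and Mcm7 (-0.05 ± 0.10, adjusted p = 0.736). Without cumulus replicate 3 of 4 h, Mcm4 was also called lower there (-0.35 ± 0.10, adjusted p = 0.00931), making 6 of 6. By 12 h 6 of 6 were lower in both, at -1.70 to -2.61 in cumulus and -0.75 to -1.75 in mural cells. Per kilobase of the longest coding transcript the 6 levels spanned 36.1 to 76.3 CPM per kb in cumulus cells at 0 h, 23.0 to 46.2 at 4 h and 10.8 to 22.3 at 12 h. In mural cells they spanned 30.9 to 65.5 CPM per kb at 0 h, 20.8 to 46.2 at 4 h and 14.9 to 28.5 at 12 h. Mcm3 (chromosome 1, 20802968 to 20820312) fell furthest of the 6 in cumulus cells and furthest of all 45 genes in mural cells. Its cumulus levels were 257, 205 and 213 CPM at 0 h, 120.1, 151 and 98.9 CPM at 4 h and 42.6, 32.6 and 35.4 CPM at 12 h. Mural Mcm3 levels were 235, 190.2 and 170.4 CPM at 0 h, 112, 107 and 109 CPM at 4 h and 61.7, 52.8 and 62.4 CPM at 12 h. The 3 times did not overlap in either cell type, and the 12 against 0 h change was -2.61 ± 0.16, adjusted p = 1.5e-10 in cumulus and -1.75 ± 0.15, adjusted p = 4.32e-08 in mural cells.

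Mcm2 had 230.3, 191 and 204 CPM at 0 h, 114, 141 and 161 CPM at 4 h and 44.04, 33.7 and 39.8 CPM at 12 h in cumulus cells. Mural Mcm2 levels were 181, 153 and 139.7 CPM at 0 h, 93.3, 87.7 and 93.2 CPM at 4 h and 70.02, 54.96 and 66.8 CPM at 12 h. It fell at each step in both cell types, and the change at 12 against 0 h was -2.41 ± 0.14, adjusted p = 1.23e-10 in cumulus and -1.30 ± 0.14, adjusted p = 5.4e-07 in mural cells. The mural fall from 4 to 12 h was not called without mural 12 h replicate 2 (-0.42). Mcm5 had 220.2, 196 and 201 CPM at 0 h, 132, 156 and 155 CPM at 4 h and 45.99, 36.5 and 37.5 CPM at 12 h in cumulus cells. Mural Mcm5 levels were 155, 129 and 126 CPM at 0 h, 113, 114 and 116 CPM at 4 h and 64.9, 51.01 and 57.5 CPM at 12 h. Its mural levels at 4 h were below those of 0 h without overlap but were not called, and a fall was called between 4 and 12 h (-0.98 ± 0.12, adjusted p = 3.17e-06). In the fit of all libraries, Mcm7 was the only one of the 45 genes whose change from 0 to 4 h was called different between the cell types. It had 257, 207 and 214 CPM at 0 h, 135, 149.7 and 125 CPM at 4 h and 65.4, 65.9 and 66.5 CPM at 12 h in cumulus cells. Mural Mcm7 levels were 156, 137 and 131 CPM at 0 h, 139.8, 129 and 142 CPM at 4 h and 89.1, 77.1 and 86.7 CPM at 12 h. The cumulus levels of 4 h lay well below those of 0 h (-0.72 ± 0.10) while the mural ones overlapped them (-0.05 ± 0.10), and the difference of these changes was -0.68 ± 0.14, adjusted p = 0.00437. In that comparison 7.26% of all genes were called in the same direction and 6.78% in the other, and 12 of the 45 replication genes had an unadjusted p under 0.05. DESeq2 called 3 of the 45, and without cumulus 4 h replicate 2 edgeR called 5. The shares of all genes behind the 12, 3 and 5 are not given here. These counts are therefore not read as particular to the replication genes. Without cumulus 4 h replicate 3, Gins1 was called in this comparison too (-0.71 ± 0.17, adjusted p = 0.00787). With library totals 2 of the 45 were called higher and 1 lower, the all-gene median moved from 0.07 to 0.25, and the share of called genes that were higher moved from 48.3 to 69.3%. A pseudogene, Gm5487, shares 97.7% of 2157 bases with Mcm7, and other genes overlap 12.6% of the exon bases of Mcm7. Their effect on its unique-read counts was not tested.

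Helicase activation joins CDC45, the 4 GINS subunits, MCM10 and the kinase CDC7 with its activator DBF4. Of these 8 genes 5 were lower at 4 h in cumulus and 3 in mural cells, and at 12 h 8 were lower in cumulus and 7 in mural cells. Cdc7 fell at both steps in both cell types. It had 63.5, 55.4 and 62.5 CPM at 0 h, 25.99, 28.9 and 31.03 CPM at 4 h and 10.9, 9.79 and 9.91 CPM at 12 h in cumulus cells. Mural Cdc7 levels were 66.1, 65.8 and 50.9 CPM at 0 h, 42.1, 30.2 and 38.6 CPM at 4 h and 24.9, 21.6 and 25.7 CPM at 12 h. The levels of the 3 times were separate in cumulus cells, with changes of -1.08 ± 0.13 at 4 against 0 h and -1.49 ± 0.14 at 12 against 4 h (adjusted p = 2.47e-06 and 5.88e-08). At 4 h Cdc7 was the one replication gene lower in cumulus than in mural cells (-0.37 ± 0.13, adjusted p = 0.0245), a call lost in 6 of the alternatives run, among them without cumulus 4 h replicate 1, mural 4 h replicate 1 or mural 4 h replicate 3 (-0.32 to -0.27). Dbf4, its activating subunit, followed another course. It had 77.7, 97.6 and 93.9 CPM at 0 h, 94.4, 89.3 and 164 CPM at 4 h and 45.8, 36.1 and 42.5 CPM at 12 h in cumulus cells. Mural Dbf4 levels were 71.7, 65.1 and 54.1 CPM at 0 h, 70.04, 72.6 and 56.4 CPM at 4 h and 45.8, 42.9 and 44.1 CPM at 12 h. Neither cell type showed a called change at 4 h (0.37 ± 0.19 in cumulus and 0.06 ± 0.19 in mural cells), and both were lower at 12 h (-1.11 ± 0.19 and -0.53 ± 0.19, adjusted p = 5.96e-05 and 0.0323). The mural call was lost without mural 0 h replicate 1, mural 0 h replicate 2, mural 12 h replicate 1 or mural 12 h replicate 2 (-0.55 to -0.44). The high 4 h value is that of cumulus replicate 3, and the 12 h cumulus call was lost with the oocyte covariate (-0.36 ± 0.36, adjusted p = 0.464).

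Cdc45, which bridges the MCM ring and GINS, had 61.1, 52.8 and 60.9 CPM at 0 h, 46.2, 48.2 and 49.8 CPM at 4 h and 17.3, 16.3 and 16.5 CPM at 12 h in cumulus cells. In mural cells Cdc45 had 44.8, 45.4 and 35.4 CPM at 0 h, 45.4, 44.7 and 43.5 CPM at 4 h and 25.2, 22.5 and 26.3 CPM at 12 h. The cumulus change of Cdc45 from 0 to 4 h was -0.28 (adjusted p = 0.0325). With the summed oocyte markers as a covariate it was not called (-0.23 ± 0.11, adjusted p = 0.0843). In mural cells the 0 and 4 h values overlapped and the 12 h values were lower (-0.85 ± 0.10, adjusted p = 4.15e-06 against 4 h). Mcm10, which binds the activated ring, had 58.2, 56.6 and 58.6 CPM at 0 h, 48.1, 48.7 and 85.2 CPM at 4 h and 13.9, 11.5 and 10.7 CPM at 12 h in cumulus cells. Mural Mcm10 levels were 46.7, 41.1 and 40.3 CPM at 0 h, 37.5, 34.6 and 34.8 CPM at 4 h and 24.4, 17.3 and 22.9 CPM at 12 h. The log2 change at 12 against 0 h was -2.27 ± 0.19 in cumulus and -0.99 ± 0.18 in mural cells (adjusted p = 1.01e-08 and 0.000242). Gins2 had 44.5, 36.2 and 36.7 CPM at 0 h, 25.97, 26.8 and 36.1 CPM at 4 h and 12.4, 10.1 and 13.3 CPM at 12 h in cumulus cells. Mural Gins2 levels were 17.2, 16.8 and 15.8 CPM at 0 h, 11.8, 12.5 and 13.9 CPM at 4 h and 10.98, 9.39 and 8.197 CPM at 12 h. It was the gene with the largest cell-type difference at 0 h (1.24 ± 0.15, adjusted p = 3.99e-06), but 67.3% of its exon bases overlap Gse1 on the opposite strand and whether the counting used strand is not stated, so its counts may hold reads of both. Gins1, another subunit of GINS, had 48.4, 47.1 and 54.4 CPM at 0 h, 26.2, 27.5 and 37.3 CPM at 4 h and 9.87, 8.15 and 8.66 CPM at 12 h in cumulus cells. Mural Gins1 levels were 23.2, 23.6 and 20.8 CPM at 0 h, 21.04, 18.7 and 21.2 CPM at 4 h and 15.5, 11.2 and 12.8 CPM at 12 h. Its mural change at 4 h was not called (-0.15 ± 0.14, adjusted p = 0.434), and its 12 h change differed between the cell types by -1.72 ± 0.20, adjusted p = 4.84e-06. Gins1 and Gins3 fell to 17.8 and 17.7% of their 0 h means at 12 h in cumulus cells, and to 58.6 and 36.4% in mural cells. Gins4 kept 54.2% in cumulus cells and 81.7% in mural cells, where it was not called (-0.29 ± 0.15, adjusted p = 0.13). Its cumulus change at 4 against 0 h was called only without cumulus 4 h replicate 3 among the fits given here (-0.58 ± 0.10, adjusted p = 9.79e-05).

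The polymerase and primase genes had all fallen by 4 h. At that time 7 of 7 were lower in cumulus cells, with a median log2 change of -1, and 7 of 7 in mural cells, with a median of -0.90. At 12 h 7 of 7 were lower in both cell types (medians -1.83 and -1.27). Pole, the catalytic subunit of the leading-strand polymerase epsilon, had 83.6, 73.8 and 87.6 CPM at 0 h, 38.9, 40.3 and 43.6 CPM at 4 h and 16.3, 12.9 and 15.4 CPM at 12 h in cumulus cells. In mural cells Pole had 86.03, 76.5 and 66.1 CPM at 0 h, 41.1, 31.8 and 40.4 CPM at 4 h and 26.3, 22.96 and 27.8 CPM at 12 h. Already at 4 h its mean was close to 50% of the 0 h mean in both, at 50.1% in cumulus and 49.6% in mural cells, and the times did not overlap. The 12 against 0 h changes were -2.46 ± 0.13, adjusted p = 3.34e-11 in cumulus and -1.57 ± 0.13, adjusted p = 1.79e-08 in mural cells. Pola1, the catalytic subunit of polymerase alpha, had 49.9, 42.8 and 42.4 CPM at 0 h, 28.6, 32.1 and 36.1 CPM at 4 h and 12.4, 11.96 and 13.6 CPM at 12 h in cumulus cells. In mural cells Pola1 had 49.4, 40.5 and 38.6 CPM at 0 h, 20.7, 23.2 and 24.8 CPM at 4 h and 20.4, 20.2 and 20.6 CPM at 12 h. The mural values of 4 and 12 h lay close together (-0.16 ± 0.12, adjusted p = 0.329 for 12 against 4 h). Pold1, the catalytic subunit of the lagging-strand polymerase delta, had 196, 161 and 178 CPM at 0 h, 73.1, 68.1 and 47.4 CPM at 4 h and 46.2, 52.7 and 45.4 CPM at 12 h in cumulus cells. Mural Pold1 levels were 155, 125 and 121 CPM at 0 h, 80.96, 57.4 and 76.5 CPM at 4 h and 54.7, 46.4 and 54.7 CPM at 12 h. It fell to 35.3% of its 0 h mean at 4 h in cumulus cells (-1.50 ± 0.16, adjusted p = 4.56e-07) and to 53.7% in mural cells (-0.90 ± 0.16, adjusted p = 0.000144). In cumulus 4 h replicate 3 it stood at 0.672 times the mean of the other libraries of its group. Prim2, the large primase subunit, was 1 of the 3 genes that rose from 4 to 12 h in mural cells. Mural Prim2 levels were 30.3, 29.6 and 28.1 CPM at 0 h, 17.9, 16.1 and 17.1 CPM at 4 h and 23.9, 22.9 and 24.5 CPM at 12 h. The 12 h values lay above all those of 4 h and below all those of 0 h (0.48 ± 0.11, adjusted p = 0.00214 against 4 h). The call at 12 against 0 h (-0.30 ± 0.11) was lost without mural 0 h replicate 1, mural 0 h replicate 2, mural 0 h replicate 3, mural 12 h replicate 1 or mural 12 h replicate 2 (-0.32 to -0.28). In cumulus cells Prim2 had 50.2, 43.4 and 48.3 CPM at 0 h, 25.5, 25.4 and 31.7 CPM at 4 h and 18.1, 21.9 and 18.8 CPM at 12 h and fell at both steps. Prim1, the catalytic primase subunit, stood at 47.0% of its 0 h mean at 4 h and 16.6% at 12 h in cumulus cells, and at 53.1% and 39.6% in mural cells. The accessory subunits Pola2 and Pole2 stood at 31.6% and 35.6% at 12 h in cumulus cells, and at 50.9% and 41.3% in mural cells.

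**Figure D3:**
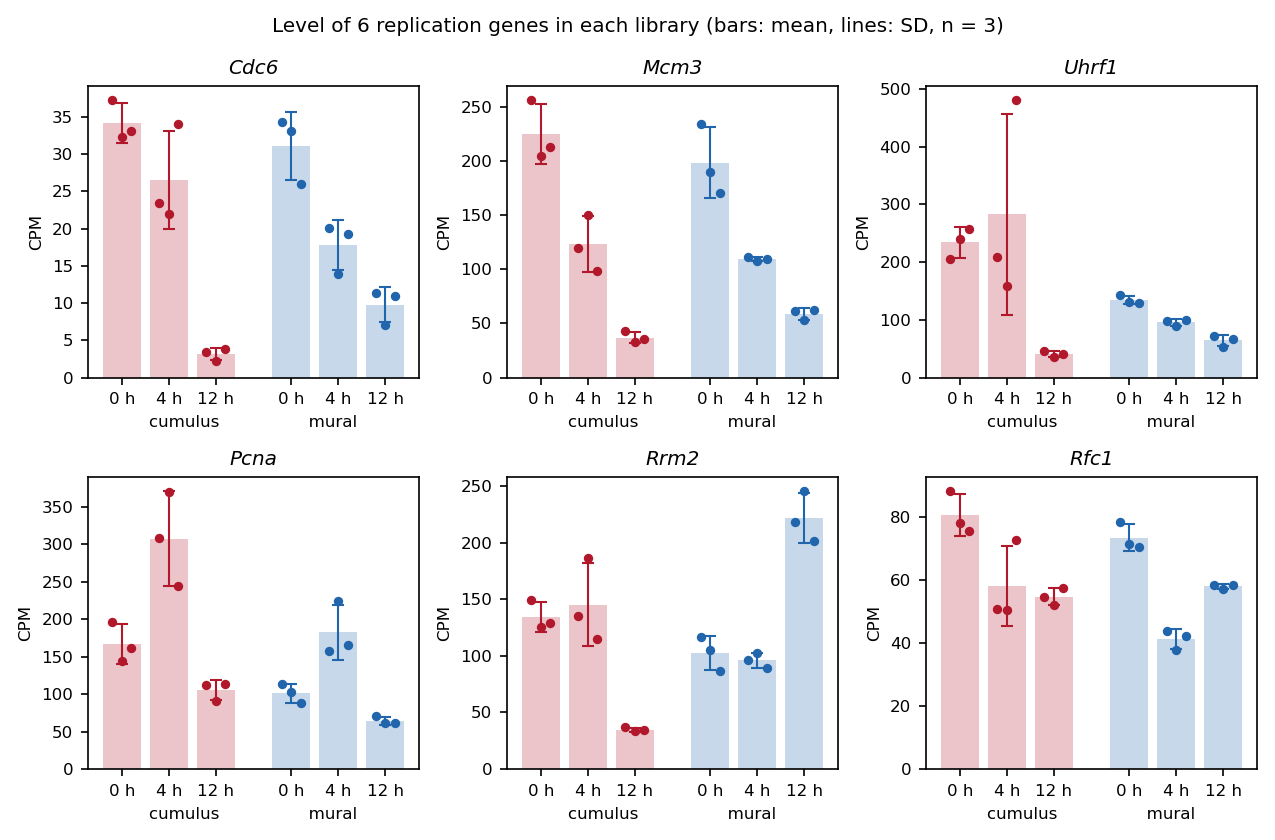
Level in CPM of 6 replication genes in each library at 0, 4 and 12 h after hCG (points), with the mean of 3 libraries (bars) and its SD (lines), cumulus cells in red and mural cells in blue. Mcm3 is lower at each later time in both cell types, Cdc6 is lowest at 12 h in both, Uhrf1 has 1 high cumulus library at 4 h, Pcna peaks at 4 h in both cell types, Rrm2 is highest in mural cells at 12 h and Rfc1 dips at 4 h in mural cells.

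The sliding clamp gene Pcna (chromosome 2, 132249162 to 132253314) was the only one of the 45 to rise at 4 h, and it did so in both cell types. PCNA holds the polymerases on the template and also serves repair. It had 196, 144 and 162 CPM at 0 h, 308, 370.0 and 244 CPM at 4 h and 112, 90.7 and 114 CPM at 12 h in cumulus cells. In mural cells Pcna had 113, 102 and 88.2 CPM at 0 h, 158, 224 and 165 CPM at 4 h and 70.8, 61.2 and 61.5 CPM at 12 h. All 4 h values were above all 0 h values, and all 12 h values below them, in each cell type. The rise at 4 h was 0.88 ± 0.17, adjusted p = 0.000268 in cumulus and 0.85 ± 0.17, adjusted p = 0.000411 in mural cells, and the difference between them was 0.03 ± 0.23. The fall from 4 to 12 h was -1.54 ± 0.17, adjusted p = 5.62e-07 in cumulus and -1.50 ± 0.17, adjusted p = 1.8e-06 in mural cells, which left Pcna below its 0 h level in both (-0.66 ± 0.17 and -0.65 ± 0.17). Scaled by library totals, the 4 h rises were 0.74 ± 0.13 in cumulus and 0.52 ± 0.13 in mural cells and stayed called. A pseudogene, Pcna-ps2, shares 99.2% of 781 bases with Pcna but averaged 20.2 counts, against 5885 for Pcna.

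The clamp loader genes Rfc1 to Rfc5 and the single-strand binding genes Rpa1 and Rpa2 did not follow Pcna. At 4 h 6 of these 7 were lower in cumulus cells, all but Rpa1, and 6 in mural cells, all but Rfc3. At 12 h 7 of 7 were lower than at 0 h in both. Rfc1, the large subunit of the loader, had 88.1, 77.9 and 75.7 CPM at 0 h, 50.95, 50.4 and 72.8 CPM at 4 h and 54.8, 51.9 and 57.4 CPM at 12 h in cumulus cells. In mural cells Rfc1 had 78.5, 71.3 and 70.5 CPM at 0 h, 43.7, 37.7 and 42.3 CPM at 4 h and 58.3, 57.2 and 58.5 CPM at 12 h. It kept the largest share of its 0 h level in cumulus cells at 12 h and was not called between 4 and 12 h there (-0.09 ± 0.12, adjusted p = 0.555). In mural cells it dipped at 4 h (-0.83 ± 0.12, adjusted p = 2e-05) and rose from there to 12 h (0.49 ± 0.12, adjusted p = 0.00385). The mural call at 12 against 0 h (-0.34 ± 0.12) was lost without mural 0 h replicate 1, mural 0 h replicate 3, mural 12 h replicate 1 or mural 12 h replicate 2 (-0.35 to -0.30). Rfc2, a small subunit of the loader, had 126, 108 and 112 CPM at 0 h, 43.2, 49.4 and 44.7 CPM at 4 h and 40.2, 42.2 and 38.04 CPM at 12 h in cumulus cells. Mural Rfc2 levels were 80.6, 70.96 and 64.8 CPM at 0 h, 41.01, 32.3 and 42.1 CPM at 4 h and 42.2, 40.1 and 38.3 CPM at 12 h. It fell to 39.5% of its 0 h mean at 4 h in cumulus cells and stood at 34.7% at 12 h, with no called change between (-0.19 ± 0.11, adjusted p = 0.151). In mural cells it stood at 53.4 and 55.8%. Rfc4 and Rfc5 were likewise not called between 4 and 12 h in mural cells, with 63.4 and 58.2% of the 0 h means at 4 h and 58.3 and 54.8% at 12 h. Rfc3, also a small subunit, had 44.96, 37.98 and 42.7 CPM at 0 h, 29.2, 31.4 and 31.9 CPM at 4 h and 22.05, 20.2 and 21.6 CPM at 12 h in cumulus cells. Mural Rfc3 levels were 28.9, 29.4 and 25.4 CPM at 0 h, 24.7, 22.2 and 24.1 CPM at 4 h and 17.5, 17.4 and 16.2 CPM at 12 h. It fell late in mural cells, with no call at 4 h (-0.24 ± 0.10, adjusted p = 0.0571) and a call from 4 to 12 h (-0.47 ± 0.10, adjusted p = 0.00101). Rpa1, the large subunit of replication protein A, fell furthest of the 45 genes at 4 h in mural cells, to 44.2% of its 0 h mean. Its cumulus values were 122, 127 and 135 CPM at 0 h, 75.3, 64.2 and 143 CPM at 4 h and 40.4, 39.02 and 40.4 CPM at 12 h. In mural cells Rpa1 had 98.8, 92.97 and 87.3 CPM at 0 h, 43.1, 36.1 and 44.1 CPM at 4 h and 46.8, 44.8 and 45.05 CPM at 12 h. In cumulus cells replicate 3 of 4 h stood above every 0 h value while the other 2 lay below them, and without that library the 4 h fall was called (-0.87 ± 0.10, adjusted p = 2.76e-07). Rpa2 fell to 24.6% at 12 h in cumulus and 60.0% in mural cells.

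Of the genes that finish the lagging strand, Lig1, the ligase, had 213, 188 and 185 CPM at 0 h, 82.8, 96.7 and 76.5 CPM at 4 h and 41.3, 41.98 and 39.4 CPM at 12 h in cumulus cells. In mural cells Lig1 had 149, 125 and 107 CPM at 0 h, 75.3, 69.6 and 79.4 CPM at 4 h and 55.3, 43.5 and 53.2 CPM at 12 h. It fell at each step without overlap in both cell types, and the change at 12 against 0 h was -2.26 ± 0.13, adjusted p = 6.29e-11 in cumulus and -1.32 ± 0.12, adjusted p = 1.12e-07 in mural cells. Fen1, the flap nuclease, had 22.1, 14.3 and 16.3 CPM at 0 h, 15.6, 15.1 and 15.8 CPM at 4 h and 5.47, 4.81 and 5.44 CPM at 12 h in cumulus cells. Mural Fen1 levels were 10.1, 9.59 and 7.91 CPM at 0 h, 10.9, 9.45 and 8.78 CPM at 4 h and 6.32, 4.51 and 4.56 CPM at 12 h. Neither cell type showed a called change at 4 h, and both were lower at 12 h (-1.74 ± 0.18 in cumulus and -0.85 ± 0.18 in mural cells, adjusted p = 2.34e-07 and 0.00105). Other genes, mostly Gm10143 on the opposite strand, overlap 84.2% of its exon bases, so its counts are uncertain.

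The nucleotide supply genes include the one that went opposite ways in the cell types. Rrm2 encodes the small subunit of ribonucleotide reductase, which makes deoxynucleotides and limits its rate in S phase, and it lies on chromosome 12 (24708241 to 24714146). It had 149.6, 125 and 129 CPM at 0 h, 135, 186 and 115 CPM at 4 h and 36.8, 33.2 and 34.5 CPM at 12 h in cumulus cells. In mural cells Rrm2 had 116, 105 and 86.5 CPM at 0 h, 96.1, 103 and 89.3 CPM at 4 h and 218, 245 and 201 CPM at 12 h. The 12 h values were the lowest in cumulus cells and the highest in mural cells, without overlap with the earlier times in either. The change at 12 against 0 h was -1.95 ± 0.15, adjusted p = 4.78e-09 in cumulus and 1.11 ± 0.15, adjusted p = 8.39e-06 in mural cells. At 4 h neither change was called (0.11 ± 0.15 and -0.10 ± 0.15). At 12 h the log2 difference of cumulus over mural cells was -2.67 ± 0.16 (adjusted p = 8.39e-10), and the difference between the changes was -3.06 ± 0.21, adjusted p = 1.27e-08, the largest of the 45. Scaled by library totals, the mural rise was 0.94 ± 0.12, and the mural change at 4 against 0 h was then called lower (-0.42 ± 0.12, adjusted p = 0.0093). No other annotated gene overlaps the exons of Rrm2, and the one near-identical match, to the pseudogene Gm48455, covered 419 bases.

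Rrm1, the large subunit of the same enzyme, did not rise with Rrm2. It had 154, 134 and 118 CPM at 0 h, 93.2, 92.9 and 87.3 CPM at 4 h and 85.1, 80.1 and 83.3 CPM at 12 h in mural cells, a change of -0.71 ± 0.14, adjusted p = 0.000634 from 0 to 12 h. The cumulus change was -1.32 ± 0.15, adjusted p = 3.78e-07. Per kilobase of transcript Rrm2 averaged 61.3 ± 6.01 CPM per kb at 0 h, 66.2 ± 16.8 at 4 h and 15.9 ± 0.82 at 12 h in cumulus cells (SD, n = 3), and 46.8 ± 6.84, 43.8 ± 3.04 and 101.1 ± 10.1 in mural cells. Rrm1 averaged 39.3 ± 5.96, 26.3 ± 5.81 and 15.7 ± 1.64 CPM per kb in cumulus cells, and 33.8 ± 4.53, 22.8 ± 0.83 and 20.7 ± 0.63 in mural cells at the same times. Per kilobase the level of Rrm2 was thus close to that of Rrm1 in cumulus cells at 12 h and well above it in mural cells. Tk1, the thymidine kinase of S phase, had 36.8, 29.8 and 33.2 CPM at 0 h, 19.1, 18.6 and 21.5 CPM at 4 h and 10.4, 12.05 and 12.7 CPM at 12 h in cumulus cells. Mural Tk1 levels were 32.3, 30.5 and 27.4 CPM at 0 h, 19.1, 13.7 and 16.9 CPM at 4 h and 16.9, 14.4 and 15.9 CPM at 12 h. It fell at 4 h in both (-0.75 ± 0.13 and -0.86 ± 0.13), and again from 4 to 12 h in cumulus cells (-0.75 ± 0.14, adjusted p = 0.000117), while the mural change from 4 to 12 h was not called (-0.07 ± 0.13, adjusted p = 0.735). Tyms, thymidylate synthase, kept 28.1% of its 0 h mean in cumulus and 71.2% in mural cells at 12 h.

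Chaf1a and Chaf1b encode subunits of the chromatin assembly factor that deposits histones behind the fork, and UHRF1 brings the maintenance methyltransferase to newly copied DNA. Chaf1b had 50.2, 36.9 and 43.4 CPM at 0 h, 13.6, 13.2 and 17.3 CPM at 4 h and 5.85, 4.31 and 7.66 CPM at 12 h in cumulus cells. Mural Chaf1b levels were 28.7, 25.9 and 23.3 CPM at 0 h, 13.7, 11.2 and 16.4 CPM at 4 h and 11.3, 9.68 and 10.2 CPM at 12 h. It fell to 33.8% of its 0 h mean at 4 h in cumulus cells, the furthest of the 45 (-1.56 ± 0.19, adjusted p = 2.54e-06), and to 13.7% at 12 h (-2.87 ± 0.20, adjusted p = 1.05e-09). In mural cells it stood at 53.1 and 40.0%. Uhrf1 and Chaf1a had the highest ratios of cumulus 4 h replicate 3 to its group. Uhrf1 had 205, 240.4 and 258 CPM at 0 h, 209, 158 and 481 CPM at 4 h and 45.7, 35.9 and 40.4 CPM at 12 h in cumulus cells. Mural Uhrf1 levels were 142, 132 and 129.8 CPM at 0 h, 98.7, 88.97 and 98.95 CPM at 4 h and 72.8, 53.5 and 67.02 CPM at 12 h. Its cumulus 4 h replicate 3 was 2.62 times the mean of the other 2 libraries, and without it the 4 h change was -0.35 ± 0.14 (adjusted p = 0.0478) in place of 0.27 ± 0.27. The fall at 12 against 0 h was -2.53 ± 0.28, adjusted p = 5.23e-07 in cumulus and -1.06 ± 0.27, adjusted p = 0.00402 in mural cells. Chaf1a had 100.1, 134 and 132 CPM at 0 h, 121, 102 and 268 CPM at 4 h and 36.6, 33.1 and 35.6 CPM at 12 h in cumulus cells. Mural Chaf1a levels were 71.04, 63.5 and 64.2 CPM at 0 h, 61.9, 57.6 and 57.6 CPM at 4 h and 41.04, 30.8 and 35.8 CPM at 12 h. It was lower at 12 h in both (-1.80 ± 0.25 and -0.89 ± 0.25), although 52.5% of its exon bases overlap Ubxn6 on the opposite strand.

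The G1/S regulators comprise E2F1, the activator of many of these genes, and the cyclins E that it induces. E2f1 had 95.9, 101 and 106 CPM at 0 h, 61.2, 53.9 and 131 CPM at 4 h and 16.3, 14.6 and 14.8 CPM at 12 h in cumulus cells. In mural cells E2f1 had 48.8, 46.9 and 43.7 CPM at 0 h, 30.1, 22.6 and 27.4 CPM at 4 h and 24.5, 14.6 and 19.4 CPM at 12 h. From 0 to 4 h E2f1 was called lower in mural and not in cumulus cells. Without cumulus 4 h replicate 3 the cumulus fall was called as well (-0.81 ± 0.15, adjusted p = 0.00024). At 12 h the cell types were not called apart (-0.35 ± 0.25, adjusted p = 0.287), while at 0 h the level was higher in cumulus cells (1.12 ± 0.25, adjusted p = 0.00136). The change at 12 against 0 h was -2.73 ± 0.26, adjusted p = 7.54e-08 in cumulus and -1.26 ± 0.25, adjusted p = 0.000543 in mural cells. Ccne1 had 15.5, 13.1 and 14.8 CPM at 0 h, 17.1, 19.97 and 12.3 CPM at 4 h and 5.85, 4.84 and 7.63 CPM at 12 h in cumulus cells. In mural cells Ccne1 had 15.7, 16.8 and 13.5 CPM at 0 h, 17.1, 15.6 and 15.2 CPM at 4 h and 7.22, 6.29 and 8.097 CPM at 12 h. It was not called at 4 h in either cell type (0.19 ± 0.18 in cumulus and 0.06 ± 0.18 in mural cells) and fell between 4 and 12 h in both (-1.43 ± 0.19 and -1.15 ± 0.19, adjusted p = 5.18e-06 and 0.000113). Ccne2 was lower at 4 h in cumulus (-0.40 ± 0.14, adjusted p = 0.0266) and in mural cells (-0.74 ± 0.14, adjusted p = 0.000308), a cumulus call that was lost without cumulus 0 h replicate 1, cumulus 4 h replicate 1 or cumulus 4 h replicate 3 (-0.38 to -0.32). It kept 26.3% of its 0 h mean at 12 h in cumulus and 36.2% in mural cells.

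**Figure D4:**
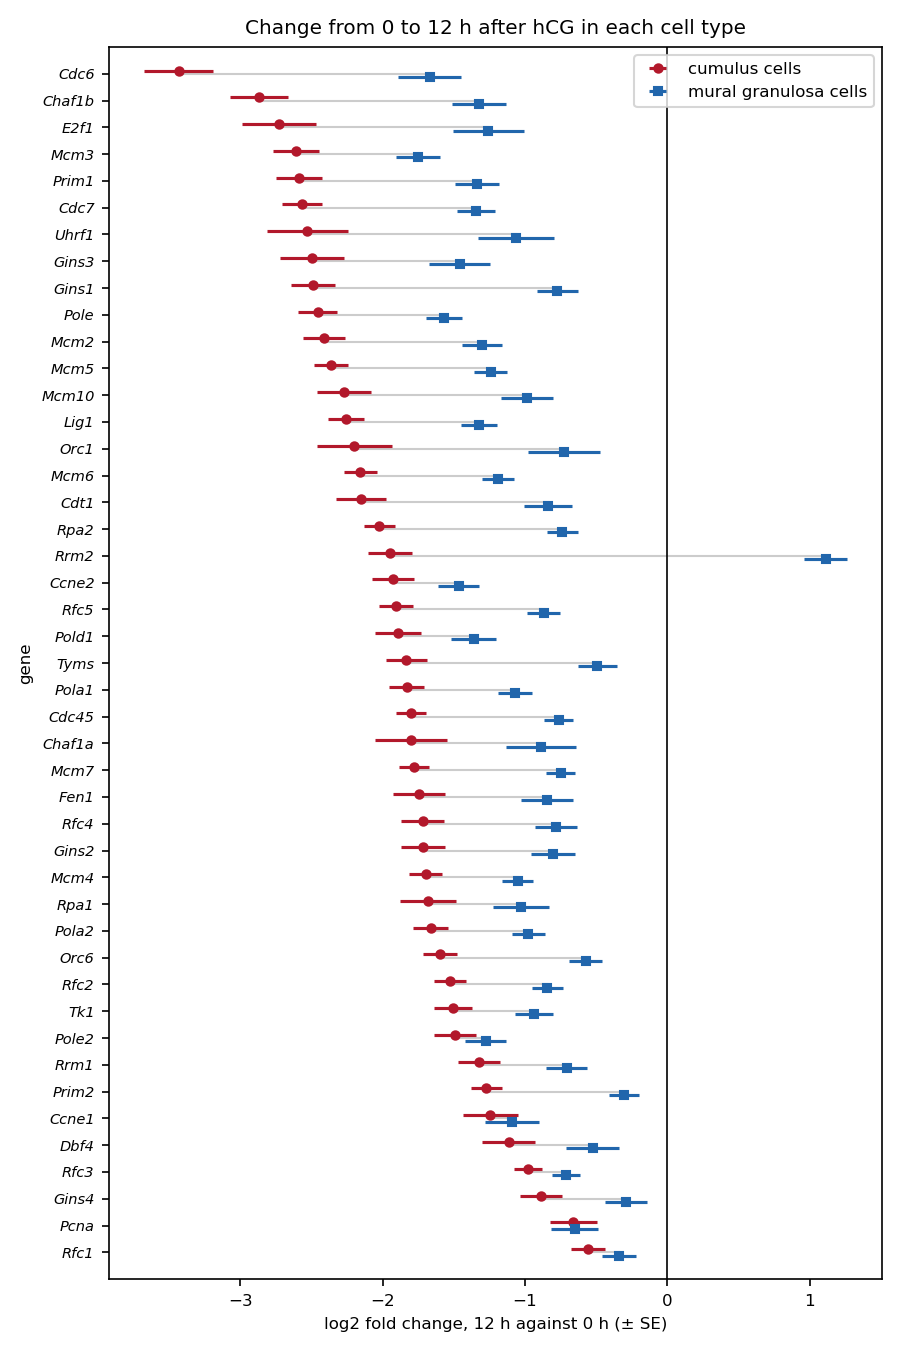
Log2 fold change at 12 against 0 h ± SE for each of the 45 genes, in cumulus cells (red circles) and mural granulosa cells (blue squares), ordered by the cumulus change. The cumulus point lies left of the mural point in 45 of 45 genes, by the most for Rrm2 and the least for Pcna.

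The cell types were then compared directly. The change from 0 to 12 h was lower in cumulus than in mural cells for 36 of the 45 genes (20% of all genes were called in that direction) and higher for 0 (20.1% of all genes), with a median difference of -0.94. All 45 differences were below 0, from -3.06 for Rrm2 to -0.01 for Pcna, and those of Dbf4, Pold1, Pole2, Pcna, Rfc1, Rfc3, Rpa1, Ccne1 and Ccne2 were not called. Across the 45 genes the cumulus and mural changes had a Pearson r of 0.54 and a Spearman rho of 0.65, with r = 0.73 without Rrm2. These are values across genes that share the same libraries and are not independent replicates. The smallest differences outside Pcna were those of Ccne1 (-0.15 ± 0.26), Pole2 (-0.22 ± 0.20), Rfc1 (-0.22 ± 0.17) and Rfc3 (-0.27 ± 0.14).

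The level of the replication genes differed between the cell types already at 0 h. There 29 of 45 were higher in cumulus than in mural cells (21.5% of all genes were) and 0 lower (25.3% were), with a median log2 difference of 0.49. The largest differences were those of Gins2 (1.24 ± 0.15), Gins1 (1.15 ± 0.14), E2f1 (1.12 ± 0.25) and Rpa2 (1.02 ± 0.11), each with an adjusted p of at most 0.00136. Cdc6 (0.14 ± 0.21), Cdc7 (-0.01 ± 0.13), Pole (0.10 ± 0.12), Ccne1 (-0.09 ± 0.18) and Ccne2 (-0.05 ± 0.14) were among the 16 not called. The oocyte markers summed to 503 to 2352 CPM in cumulus and 209 to 748 CPM in mural libraries at 0 h. With these sums as a covariate the 0 h calls of Orc1, Dbf4, Prim1, Chaf1a and Uhrf1 were lost (0.19 to 0.42). At 4 h 25 were higher in cumulus cells (27.6% of all genes) and 1, Cdc7, lower (27%), with a median of 0.42. At 12 h the order had turned, with 24 lower in cumulus cells (20.5% of all genes) and 2 higher (18%), and a median of -0.42. Under library totals 34 were higher and 0 lower at 4 h, and 1 was higher and 29 lower at 12 h. The all-gene median then moved from -0.01 to 0.12 at 4 h and from -0.07 to -0.19 at 12 h, and the share of called genes that were higher at 12 h moved from 46.7 to 35.6%. The largest differences at 12 h were those of Rrm2 (-2.67 ± 0.16), Cdc6 (-1.63 ± 0.23) and Cdc7 (-1.24 ± 0.14). Pcna was higher in cumulus cells at all 3 times (0.72 ± 0.17 at 0 h, 0.75 ± 0.17 at 4 h and 0.71 ± 0.17 at 12 h, adjusted p at most 0.00249), and Rfc3 was the other gene higher at 12 h (0.32 ± 0.10, adjusted p = 0.0159). The call of Rfc3 was lost without cumulus 12 h replicate 1 or mural 12 h replicate 3 (0.23 to 0.29). With the summed oocyte markers as a covariate neither 12 h call was kept (0.28 ± 0.19 for Pcna and 0.20 ± 0.14 for Rfc3, adjusted p = 0.297 and 0.303). The 12 h calls of Orc6, Mcm10, Gins1, Gins3 and Tk1 as lower in cumulus cells were lost too (-0.79 to -0.33). This fit cannot separate oocyte RNA from the 12 h level in cumulus cells.

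**Figure D5:**
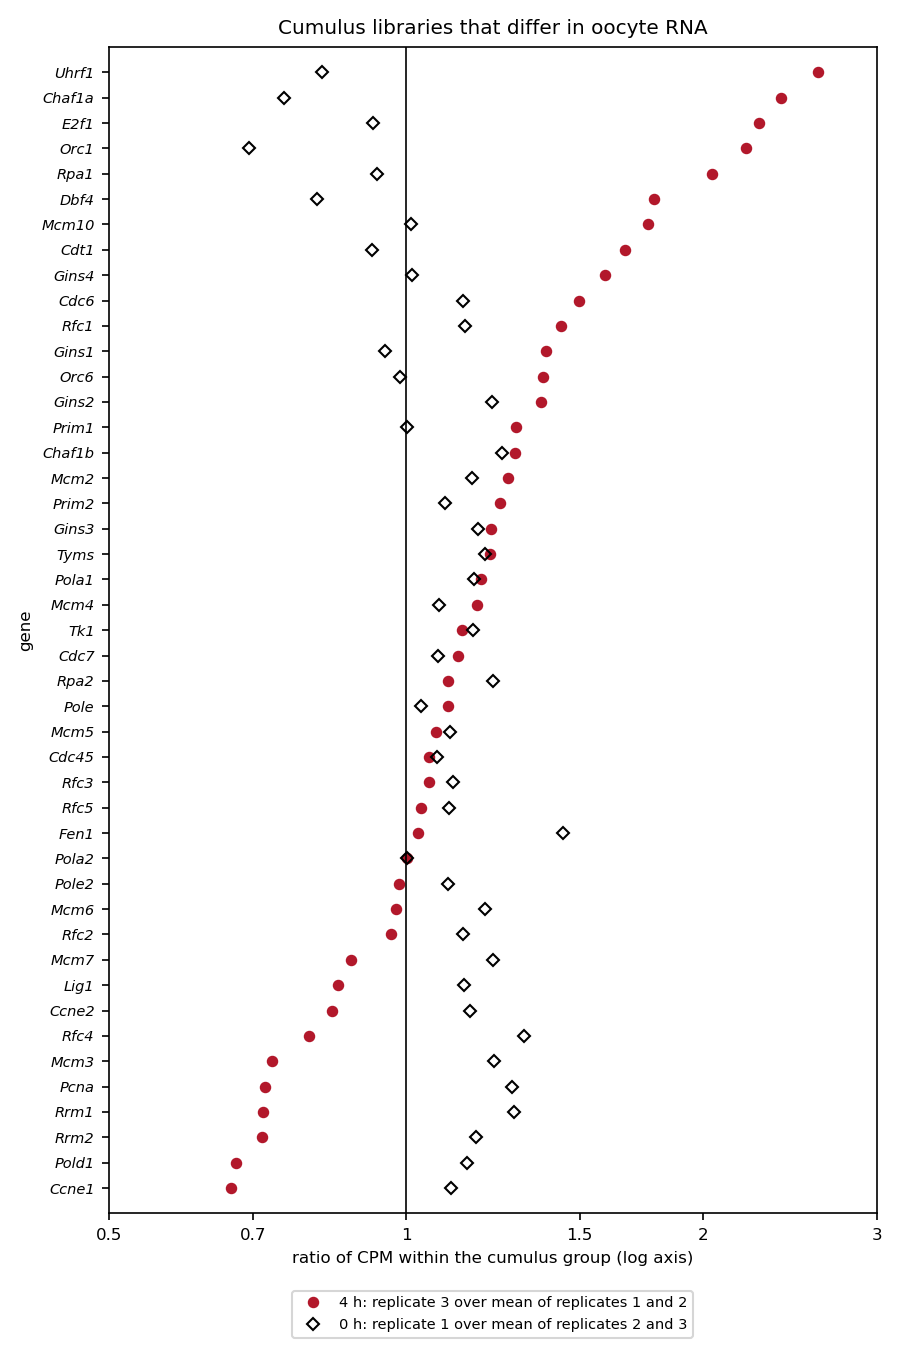
Ratio, on a log axis, of the CPM of each of the 45 genes in 1 cumulus library to the mean of the other 2 libraries of its group. Filled circles show cumulus 4 h replicate 3, which has the highest oocyte marker sum, and open diamonds show cumulus 0 h replicate 1, which has the lowest of the 0 h group. The circles run from Ccne1 at 0.665 to Uhrf1 at 2.62, and the genes at the top of the circles are mostly below 1 in the diamonds.

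Some replication genes differed between cumulus libraries that also differed in the oocyte markers. Cumulus 4 h replicate 3, with an oocyte sum of 8488 CPM, was above both other 4 h libraries for 29 of the 45 genes and below both for 10. For 9 genes it was more than 1.5 times their mean, namely Uhrf1 (2.62), Chaf1a (2.40), E2f1 (2.28), Orc1 (2.21), Rpa1 (2.04), Dbf4 (1.79), Mcm10 (1.76), Cdt1 (1.67) and Gins4 (1.59). Cumulus 0 h replicate 1, with the lowest oocyte sum of its group and the highest mitochondrial share of all libraries (12.6%), was above both others for 31 genes and below both for 8. Orc1 and Chaf1a were the lowest there, at 0.692 and 0.752 times the mean of the other libraries. The same counts were not made over all genes, so they are not read as particular to the replication genes. With the summed oocyte markers as a covariate 38 of 45 genes were still called lower at 12 against 0 h in cumulus cells. The 7 others were Orc1, Gins4, Dbf4, Rfc1, Rpa1, Chaf1a and Uhrf1, at -0.32 to -1.01. This fit cannot separate oocyte RNA from the 12 h change in cumulus cells. The marker sums there (38.0 to 43.0 CPM, with Tle6 at a mean of 31.0 CPM) lay below those of every other library. In that fit 33 genes were lower at 12 against 4 h in place of 43, and 18 were higher in cumulus cells at 4 h in place of 25. The 4 h calls of Orc1, Orc6, Cdc6, Mcm4, Mcm5, Mcm10, Gins1, Gins4, Dbf4, Rfc1, Rpa1, Chaf1a, Uhrf1 and E2f1 were lost (0.25 to 0.70). The 18 thus include genes not called higher in the main fit. For 29 in place of 36 genes the change from 0 to 12 h was lower in cumulus than in mural cells. Calls over all genes also dropped in that fit, to 5174 in place of 12065 at 12 against 4 h and to 5664 in place of 10876 between the cell types at 4 h. The median log2 change of the 45 was -1.45 in place of -1.43 and 0.47 in place of 0.42 in these comparisons. Without both libraries 45 of 45 genes were lower at 12 against 0 h in cumulus cells, 32 were lower and 1 higher at 4 against 0 h, and for 39 the change from 0 to 12 h was lower than in mural cells. Mural changes did not lose calls with the oocyte covariate, with 43 genes lower and 1 higher at 12 against 0 h.

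A second list of 61 replication partners and regulators gives the setting of the 45 genes, and all 61 were measured. In cumulus cells 47 of them were lower and 9 higher at 12 than at 0 h, and in mural cells 32 were lower and 10 higher. At 4 h 21 were lower and 14 higher in cumulus cells, and 26 lower and 9 higher in mural cells. Of all genes tested, 32.9% were lower and 31.2% higher at 12 h in cumulus cells, and 19% lower and 21.6% higher in mural cells. At 4 h these shares were 22.8% and 25% in cumulus cells and 22.3% and 22.8% in mural cells. The largest rise in both was that of Cdkn1a, which encodes the CDK inhibitor p21. It had 8.71, 9.96 and 10.5 CPM at 0 h, 61.4, 110.1 and 46.3 CPM at 4 h and 151, 152 and 157 CPM at 12 h in cumulus cells. Mural Cdkn1a levels were 8.24, 10.3 and 7.12 CPM at 0 h, 61.4, 89.4 and 67.99 CPM at 4 h and 169.8, 211 and 172 CPM at 12 h. Both cell types rose at each step without overlap, and the change at 12 against 0 h was 3.98 ± 0.26, adjusted p = 4.53e-10 in cumulus and 4.43 ± 0.27, adjusted p = 3.6e-10 in mural cells. Cdkn1b, which encodes the CDK inhibitor p27, rose more in cumulus (2.06 ± 0.13) than in mural cells (0.84 ± 0.13), with a difference of 1.22 ± 0.18, adjusted p = 4.73e-05.

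Rnaseh2a, the catalytic subunit of the ribonuclease that removes ribonucleotides from DNA, had 56.6, 57.1 and 51.2 CPM at 0 h, 49.2, 54.5 and 44.3 CPM at 4 h and 101, 109 and 108 CPM at 12 h in cumulus cells. Mural Rnaseh2a levels were 35.2, 33.7 and 33.6 CPM at 0 h, 59.9, 57.9 and 63.6 CPM at 4 h and 342, 412 and 365 CPM at 12 h. Both rose at 12 h (0.95 ± 0.09, adjusted p = 9.38e-08 in cumulus and 3.45 ± 0.10, adjusted p = 1.03e-13 in mural cells), and the difference between the changes was -2.50 ± 0.13, adjusted p = 9e-10. Other genes, among them Prdx2 on the opposite strand, overlap 14.7% of its exon bases. Pold4, the small subunit of polymerase delta, rose in both at 12 h (2.75 ± 0.15 in cumulus and 1.31 ± 0.14 in mural cells), unlike its catalytic partner Pold1. AC109138.7, on the same strand, overlaps 24.6% of the exon bases of Pold4, so its counts are less certain. E2f2, a relative of E2f1, rose in cumulus cells (1.68 ± 0.16) and its change differed from that in mural cells by 2.70 ± 0.22, adjusted p = 6.73e-08. Top1, a DNA topoisomerase, was higher at 4 h in cumulus (1.43 ± 0.13) and mural cells (2.42 ± 0.14). The largest falls at 12 h in cumulus cells were those of the nuclease Dna2 (-3.24 ± 0.21), the loader subunit Dscc1 (-2.85 ± 0.26), the ubiquitin ligase subunit Dtl (-2.52 ± 0.14) and the fork protein Wdhd1 (-2.48 ± 0.16). In mural cells they were those of Dna2 (-1.71 ± 0.20), the repressors E2f7 (-1.56 ± 0.17) and E2f8 (-1.40 ± 0.18), and Chtf18 (-1.38 ± 0.14). Each of these changes had an adjusted p of at most 5.48e-06.

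Rrm2b, which encodes the other small subunit of ribonucleotide reductase, used for repair and mitochondrial DNA, was lower at 4 h in mural cells. It had 14.9, 27.9 and 30.5 CPM at 0 h, 30.8, 21.3 and 112 CPM at 4 h and 12.5, 14.6 and 14.4 CPM at 12 h in cumulus cells, where the high 4 h value is that of replicate 3, the library with the highest oocyte marker sum, and the other 4 h values lay within the range of 0 h or next to it. No change is read from these cumulus values. Mural Rrm2b levels were 17.6, 16.9 and 21.3 CPM at 0 h, 7.92, 8.12 and 7.58 CPM at 4 h and 16.8, 15.4 and 17.4 CPM at 12 h. The mural 4 h values were below all others, with changes of -1.24 ± 0.42, adjusted p = 0.0226 at 4 against 0 h and 1.07 ± 0.42, adjusted p = 0.0579, not called, at 12 against 4 h. Dnmt1, the maintenance methyltransferase that UHRF1 recruits, had 322, 638 and 655 CPM at 0 h, 759, 555 and 1973 CPM at 4 h and 180.5, 169.6 and 172 CPM at 12 h in cumulus cells. Mural Dnmt1 levels were 263, 246 and 293 CPM at 0 h, 241, 256 and 247 CPM at 4 h and 213, 169.9 and 193 CPM at 12 h. Its highest value was that of cumulus 4 h replicate 3, and the part of oocyte RNA in its level was not tested. The cumulus change from 4 to 12 h was -2.65 ± 0.35, adjusted p = 4.9e-06.

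Ccna2, the cyclin of S and G2 phase, fell by 12 h in cumulus (-1.82 ± 0.12, adjusted p = 4.43e-10) and in mural cells (-0.59 ± 0.12, adjusted p = 0.000491). Top2a, the topoisomerase that untangles copied DNA, changed by -1.28 ± 0.15 in cumulus and -0.96 ± 0.15 in mural cells (adjusted p = 7.14e-07 and 4.06e-05). Gmnn, which encodes geminin, the inhibitor of CDT1, was lower in cumulus cells at 12 h (-0.61 ± 0.12, adjusted p = 0.00028) and was not called in mural cells (0.21 ± 0.12, adjusted p = 0.19).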

How the data were processed

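RNA of cumulus and mural granulosa cells was measured by sequencing poly(A)-enriched libraries, 3 in each of 6 groups. The authors deposited 1 table of unique-read counts per gene, made with CLC Genomics Workbench at default parameters, per the series' design text, on GRCm38, per the submitters' processing notes. The CLC version, the annotation and the strand setting are not stated in the sources at hand. The 45 replication genes and the 61 partners were chosen with earlier results of these data known, by gene symbol. Values in every library were given for 24 replication genes named when the design was written and for up to 3 called genes with the largest change in each direction of a comparison. Of the partners, up to 4 called genes per direction and comparison could be named, with Cdkn1a, Ccna2, Gmnn and Top2a fixed. Other genes named with values (Mcm7, Prim2, Rpa1, Rrm1 and those given only as shares of the 0 h level) were chosen after their values were seen.

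Counts were kept for 19941 genes by edgeR's filterByExpr (edgeR 4.0.16, R 4.3.3, minimum count 10), scaled by TMM, and fitted in 1 quasi-likelihood model over the 6 groups. SE is the absolute log2 change divided by the square root of F. P-values of 11 comparisons were adjusted over all genes (Benjamini-Hochberg) with a threshold of 0.05. The code was tested on simulated data. Alternatives were RLE scaling, library totals, no filter on low counts, DESeq2 1.42.0, only the groups compared, replicate number as a block, the summed CPM of 18 oocyte markers as a covariate, and leaving out each library. Leaving out cumulus 0 h replicate 1 and cumulus 4 h replicate 3 together was added after seeing the data. Libraries of a group differed by 7.81 to 247 in chi-square per degree of freedom, so none repeated another's counts, though repeat preparations of 1 RNA sample cannot be told apart. Coordinates and exon overlaps are from GENCODE M21 on GRCm38, near-identical copies from BLAST 2.17.0 (at least 95% identity over 200 bases), and promoter sequences from RefSeq on GRCm38.p6. Pseudogenes also matched Cdc6 (Gm9430, 1528 bases), Rfc5 (Gm12870, 1020 bases) and Uhrf1 (Gm5648, 1590 bases), and Tyms had 18 matches of at most 361 bases. The effect of these copies on the counts was not tested. Genes on the opposite strand also overlap exon bases of Ccne2 (17.4%), Rfc2 (15.1%), Rfc4 (12.7%), Orc1 (10.8%) and Rfc5 (10.7%). Their effect on the counts was not tested either. Read counts are not independent molecules, and count error is only part of the spread.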

Additional observations from a re-analysis of the deposited data

Results flagged for a closer look

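In the fit of all libraries, the change from 0 to 4 h differed between cumulus and mural cells for Mcm7. The log2 difference was -0.68 (cumulus minus mural change, tested as an interaction term in edgeR), which singled it out. The same test of the change from 0 to 12 h singled out 36 genes, with log2 differences of cumulus minus mural change that were all below 0. Among genes of origin licensing the 12 h difference was -1.47 for Orc1, -1.02 for Orc6, -1.76 for Cdc6 and -1.31 for Cdt1. For the MCM ring it was -1.11 for Mcm2, -0.86 for Mcm3, -0.64 for Mcm4, -1.12 for Mcm5, -0.97 for Mcm6 and -1.03 for Mcm7. In helicase activation it was -1.28 for Mcm10, -1.04 for Cdc45, -1.72 for Gins1, -0.91 for Gins2, -1.04 for Gins3, -0.59 for Gins4 and -1.23 for Cdc7. Genes of the polymerases and primase had -0.76 for Pola1, -0.69 for Pola2, -1.25 for Prim1, -0.97 for Prim2 and -0.89 for Pole. For those of the clamp loader and RPA it came to -0.68 for Rfc2, -0.94 for Rfc4, -1.04 for Rfc5 and -1.29 for Rpa2. The genes of Okazaki fragment joining showed -0.90 for Fen1 and -0.93 for Lig1. Members of nucleotide supply had -0.61 for Rrm1, -3.06 for Rrm2, -1.34 for Tyms and -0.57 for Tk1. For chromatin and methylation copying the values were -0.91 for Chaf1a, -1.55 for Chaf1b and -1.47 for Uhrf1. Of the G1/S regulators the value was -1.47 for E2f1. The other 9 genes were not called apart in the 12 h change. The differences of Chaf1a, Gins4, Rrm1 and Tk1 were no longer called when certain single libraries were left out, and with the summed oocyte markers as a covariate 27 of the 36 calls stood. That covariate cannot separate oocyte RNA from the 12 h change in cumulus cells.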

How the results depend on the processing

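Of 4852 recomputed values of 340 called changes, 4607 kept their direction and call, 244 kept only their direction and 1 reversed. That was Chaf1a in the cell-type difference of the 12 h change, at 0.45 with the oocyte covariate in place of -0.91, and the cause was not tested. The number of genes whose 4 h change differed between the cell types, 1, became 3 with library totals, 3 with the oocyte covariate, 3 with DESeq2 and 2 without both doubted cumulus libraries. When single libraries were left out, the number called ran from 25 to 30 for mural cells at 4 against 0 h, 20 to 29 at 12 against 4 h (20 without mural 12 h replicate 2, against 31 with all libraries) and 40 to 43 at 12 against 0 h. For cumulus cells it ran from 27 to 35, from 42 to 43 and stayed at 45 in the same comparisons. Between the cell types it ran from 23 to 29 at 0 h, 25 to 31 at 4 h and 19 to 27 at 12 h, and for the differences in change from 1 to 5 at 4 h and 32 to 37 at 12 h.

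With replicate number as a block the counts for mural cells were 29, 31 and 44 at 4 against 0 h, 12 against 4 h and 12 against 0 h, and for cumulus cells 31, 43 and 45. Between cell types the block gave 30, 26 and 28 at 0, 4 and 12 h, and 1 and 37 for the differences. The replicate numbers did not meet the rule for pairing, every same-numbered pair above 0.1: deviations of same-numbered libraries had a median correlation of 0.016 (-0.29 to 0.403), 10 of 45 such pairs and 10 of 90 differently numbered ones were above 0.1, and, as a hint from the data, 10 of 18 libraries correlated best with their own number. Depth limits mainly Cdc6 at 12 h in cumulus cells, with a lowest count of 77.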
